A study of Sus scrofa with 12 samples.

Results

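The subunits of the mitochondrial respiratory chain and ATP synthase that are encoded by nuclear genes were examined in the ovary of pregnant sows. A gene was a member when its symbol in the array annotation began with NDUFA, NDUFB, NDUFC, NDUFS, NDUFV, UQCR, COX4 to COX8 or ATP5, or was one of the SDH subunit symbols or CYC1, with the NDUFAF assembly factors left out. Such a symbol stood alone on 75 of the 24123 probe sets of the array, and these belonged to 60 of the 6765 genes so named. Each gene was represented by the probe set with the highest mean over all sows, and 59 of the 60 genes passed the filter on low values, a log2 value above 4 in at least 6 of the 12 sows. Complex I held 32 genes, complex II 4, complex III 2, complex IV 8 and complex V, the ATP synthase, 14.

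The samples were ovaries of 12 F2 sows of an Iberian by Meishan cross, killed on day 30 of pregnancy. On their estimated breeding values for prolificacy, 6 sows were labelled high and 6 low. Every sow of both groups was of the same cross and the same day of pregnancy, and neither a treatment nor an age was named in the labels. Each sample stood for the right and left ovary of 1 sow together, measured on the porcine Affymetrix GeneChip, a short-oligonucleotide array, so the number of arrays limits the precision.

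Oxidative phosphorylation takes electrons from NADH at complex I and from succinate at complex II, passes them through ubiquinone to complex III, and through cytochrome c to complex IV, where oxygen is reduced. Complexes I, III and IV pump protons across the inner mitochondrial membrane, and complex V uses the gradient to make ATP. In the corpus luteum, which secretes progesterone during pregnancy, the first step of steroid synthesis also lies in the mitochondrion, where CYP11A1 cleaves the side chain of cholesterol.

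The tissue label was checked against luteal markers. All 8 luteal markers listed were measured, among them STAR, which carries cholesterol into mitochondria, at a mean of 14.56 ± 0.28 (log2, SD, n = 6) in high sows and 14.61 ± 0.11 (n = 6) in low sows. The level of a gene list in a sow is given here as the mean, over the genes tested, of each gene's log2 deviation from its 12-sow mean. For the luteal list it lay between -0.45 and 0.31 in high sows and between -0.14 and 0.16 in low sows. The granulosa list, with 4 of 7 markers tested, spread far more, from -2.54 to 1.74 in high sows and from -1.09 to 1.79 in low sows. Its markers were unequal, with an SD over the 12 sows of 2.92 for CYP19A3, 2.19 for INHA, 0.865 for FST and 0.30 for INHBA. Of the luteal markers, RLN2 (mean 15.1) lay near the array maxima of 15.23 to 15.34, and LHCGR had an SD of 0.83. Whether such high values narrow the luteal spread was not tested. None of the 3 T cell markers was above the filter. Albumin, a liver product, was above 6 in 1 high and 3 low sows, against 2.04 to 3.33 in the others. Array medians were 4.81 to 4.97. In whole ovary, fewer cells of a type and less RNA per cell cannot be told apart.

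No subunit gene differed between high and low sows by limma, with p-values adjusted over all 13390 probe sets tested (smallest adjusted p among members 0.801). The same test called 0 of the 13390 probe sets, which is 0 percent. At an unadjusted p under 0.05, 1 of the 59 genes, NDUFA9, was past the threshold, against 5.64% of all probe sets. In no member were the groups free of overlap, against 0.471% of all probe sets (0.336% with the high sows lower). In limma, the alternative with array weights and the one with its trend and robust options each called 0 members after adjustment. An exact permutation test of each probe set could not have called any. Its smallest p is reached only where the groups do not overlap. Too few probe sets were free of overlap for that p to pass the adjustment, so no conclusion is drawn from this test.

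No test was run on the direction of the members as a set. The mean of the high sows was under that of the low sows in 46 of 59 genes (78.0%), against 52.4% of all probe sets tested. Among probe sets with a mean over 10, where 38 of the members lay, the shares were 30 of 38 members (78.9%) and 1023 of 1592 probe sets (64.3%). The median difference of high minus low was -0.065 on the log2 scale over members and -0.010 over all probe sets tested. Among probe sets with a mean over 10 these medians lay closer, at -0.063 over members and -0.042 over all. The median over the 59 members was -0.032 without low sow 2, -0.041 without high sow 2 and -0.024 with array weights. The members were measured in the same sows and moved together from sow to sow, so their number does not count as replication. The lower count fell to 36 with array weights and to 38 with the actin 3' minus 5' difference, a measure of RNA quality, as a covariate.

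The size of the differences was small. The fold between group means was under 1.1 in 49 genes, from 1.1 to 1.2 in 8, and 1.2 or more in 2, NDUFA9 and NDUFA5. The 95% interval of the difference lay within 0.5 log2 units of 0 in 54 of 59 members (91.5%), against 52.2% of all probe sets tested, and within 1 unit in all 59. The median spread within groups (SD) was 0.17 over members and 0.28 over all probe sets tested. Bright probe sets spread less: with a mean over 10 the median SD was 0.15 over members and 0.24 over all. In that range the interval lay within 0.5 units of 0 in 97.4% of members and 65.2% of all probe sets. The spread was larger in high than in low sows for 42 of 59 members (71.2%), against 73.8% of all probe sets tested. Over the 12 sows the median range of a member was 0.56 log2 units, or 1.47-fold. It was narrowest for COX6C at 0.13 and widest for NDUFB11 at 1.48, with NDUFS6 and ATP5G2 the other 2 genes that spanned at least 2-fold.

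**Figure D1:**
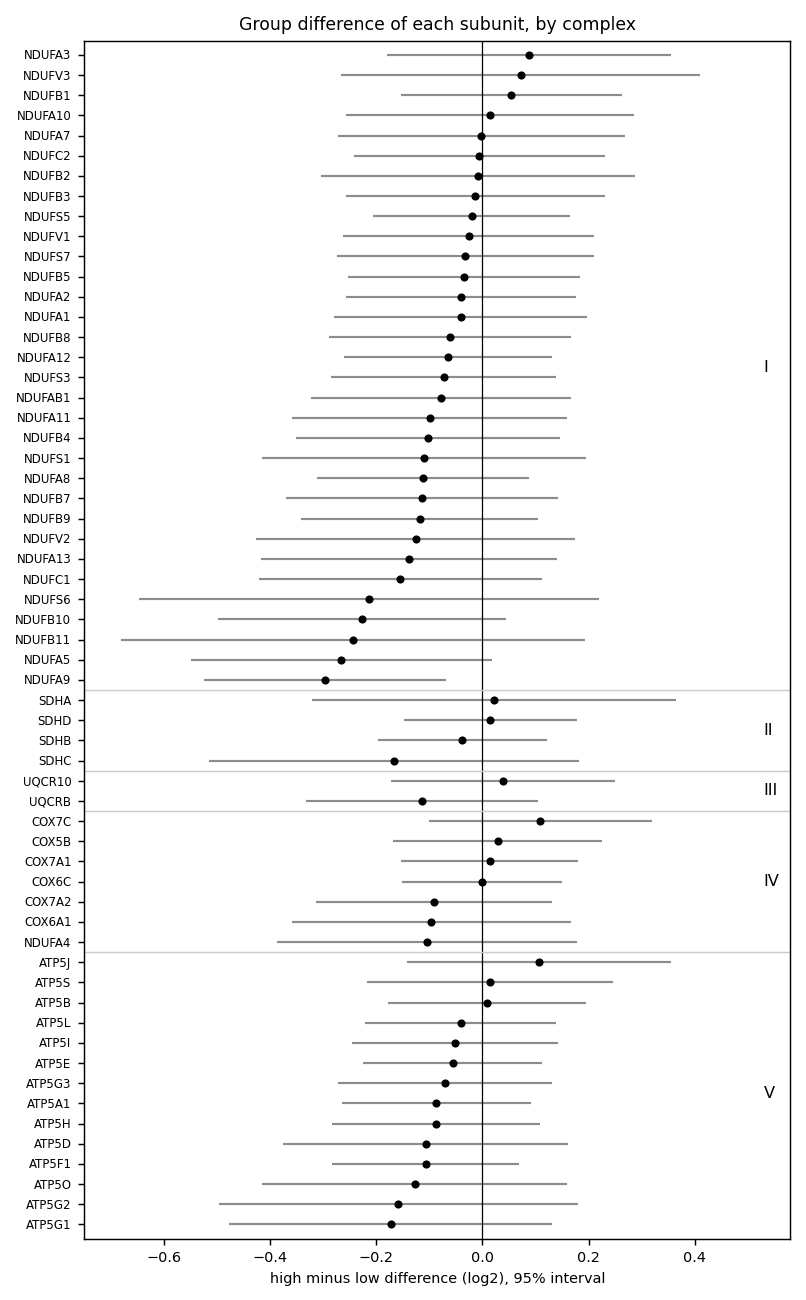
Difference of high minus low sows for each subunit gene (log2, horizontal axis), grouped by complex; points are differences of the means of 6 and 6 sows and bars are 95% intervals from limma. The points run from -0.30 (NDUFA9) to 0.11 (COX7C), and the interval of NDUFA9 is the one that leaves out 0.

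Complex I, the NADH dehydrogenase, had 28 of 32 genes lower in high sows, with a median difference of -0.069. This median was -0.029 without low sow 2, -0.043 without high sow 2, -0.11 without low sow 4 and -0.028 with array weights. Its redox core was measured by 5 genes. NDUFV1, which binds NADH and the flavin, ran from 8.86 through a median of 9.22 to 9.36 in high sows and from 8.96 through 9.25 to 9.45 in low sows. NDUFV2, an iron-sulphur subunit beside it, ran from 10.23 through 10.73 to 10.79 in high and from 10.41 through 10.75 to 11.01 in low sows. NDUFS1, the largest iron-sulphur subunit, ran from 9.27 through 9.72 to 9.92 in high and from 9.54 through 9.66 to 10.17 in low sows. The groups overlapped in these 3 genes, and low sow 2 held the highest value of each. NDUFS3, of the arm that leads to ubiquinone, ran from 9.65 through 9.88 to 9.94 in high and from 9.63 through 9.89 to 10.11 in low sows. NDUFS7, which carries the last iron-sulphur centre before ubiquinone, ran from 8.60 through 8.93 to 9.11 in high and from 8.74 through 8.89 to 9.04 in low sows. The core differences were thus -0.026 for NDUFV1, -0.13 for NDUFV2, -0.11 for NDUFS1, -0.073 for NDUFS3 and -0.032 for NDUFS7, with limma adjusted p from 0.948 to 0.990.

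Among the brightest probe sets of the members, accessory subunits of complex I held the lowest p-values. NDUFA9, which sits where the matrix arm meets the membrane, ran from 9.14 through 9.34 to 9.61 in high sows and from 9.43 through 9.62 to 9.85 in low sows. All 6 high sows lay under the low mean, with high sows 1 and 3 lowest, yet high sows 2 and 6 reached above the lowest low sow. Its means were 9.34 ± 0.18 and 9.63 ± 0.14 (SD, n = 6 each), a difference of -0.30 (95% interval -0.52 to -0.069, 1.23-fold, limma adjusted p = 0.801). Leaving out any 1 sow kept this value between -0.35 and -0.25. NDUFA5, an accessory subunit of the matrix arm, ran from 8.41 through 8.85 to 9.09 in high and from 8.84 through 9.04 to 9.32 in low sows. High sow 3 was far down and the groups overlapped. The NDUFA5 difference was -0.27 (interval -0.55 to 0.017, limma adjusted p = 0.874), and -0.13 without high sows 2 and 3, which had the lowest rank correlations with the other arrays.

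NDUFB10, a membrane-arm subunit, ran from 9.28 through 9.76 to 9.95 in high and from 9.76 through 9.94 to 10.17 in low sows. High sow 2 alone lay far below the rest. The NDUFB10 difference of -0.23 (interval -0.50 to 0.044, limma adjusted p = 0.891) was -0.14 without that sow. NDUFB11, also of the membrane arm, had the largest spread of complex I, from 10.07 through 10.93 to 11.24 in high and from 10.78 through 10.95 to 11.55 in low sows. High sow 3 was at the bottom and low sow 2 at the top, while the medians lay together. The NDUFB11 difference of -0.24 (interval -0.68 to 0.19, limma adjusted p = 0.929) became -0.10 without high sow 3 and -0.14 without low sow 2.

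NDUFS6, a zinc-binding subunit, ran from 5.45 through 6.56 to 6.77 in high and from 6.44 through 6.58 to 6.71 in low sows. High sow 2 alone made most of its difference of -0.21 (limma adjusted p = 0.935), which was -0.029 without that sow. Among the other accessory subunits the differences ran from -0.155 for NDUFC1 to 0.087 for NDUFA3. NDUFA3, NDUFV3, NDUFB1 and NDUFA10 were the 4 genes of complex I that were higher in high sows, by 0.087, 0.072, 0.054 and 0.013.

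**Figure D2:**
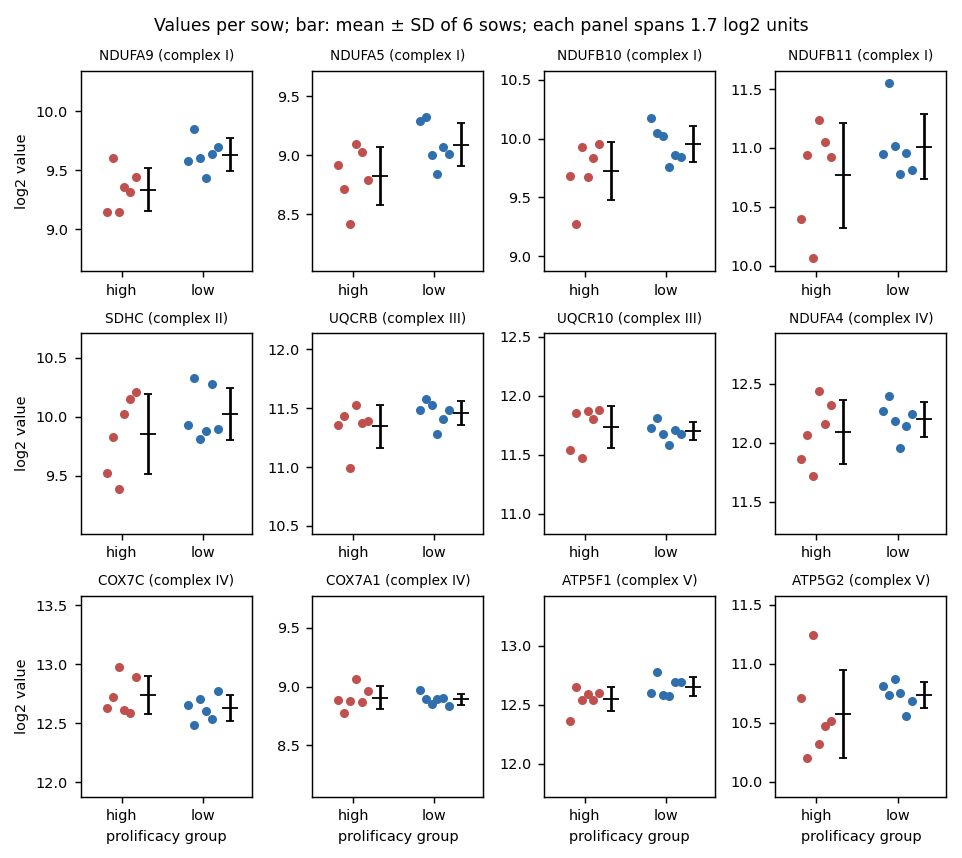
Log2 value (vertical axis) of selected subunit genes in each of the 12 sows by prolificacy group; points are sows and bars are the mean ± SD of 6 sows, and each panel spans the same range of 1.7 log2 units. In every panel the groups overlap, and in NDUFA9 and ATP5F1 all 6 high sows lie under the low mean.

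Complex II, the succinate dehydrogenase, also belongs to the citric acid cycle and has no mitochondrially encoded subunit. All 4 of its genes were measured, 2 lower and 2 higher in high sows, with a median difference of -0.011. SDHA, the flavoprotein that oxidises succinate, ran from 10.54 through 10.98 to 11.22 in high and from 10.58 through 10.90 to 11.31 in low sows. SDHB, the iron-sulphur subunit, ran from 10.83 through 10.95 to 10.97 in high and from 10.86 through 10.96 to 11.06 in low sows. For SDHA and SDHB, whose groups overlapped nearly whole, the differences were 0.021 and -0.038 (limma adjusted p = 0.992 and 0.985).

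SDHC, a membrane anchor, ran from 9.39 through 9.93 to 10.21 in high and from 9.81 through 9.91 to 10.32 in low sows. High sows 1 and 3 lay below all low sows and the other 4 lay among them. The SDHC difference was -0.17 (interval -0.51 to 0.18, limma adjusted p = 0.938), and -0.074 without high sow 3. SDHD, the other anchor, ran from 11.12 through 11.18 to 11.32 in high and from 11.12 through 11.19 to 11.29 in low sows, a difference of 0.015 (interval -0.15 to 0.18, limma adjusted p = 0.990). SDHA and SDHC therefore spread over the sows more widely than SDHB and SDHD, with high sow 3 lowest in both.

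Complex III, the cytochrome bc1 complex, was seen through a pair of small subunits only. UQCRB, which lies near a ubiquinone site, ran from 10.99 through 11.38 to 11.53 in high and from 11.28 through 11.48 to 11.58 in low sows. UQCR10, the smaller of the pair, ran from 11.47 through 11.83 to 11.88 in high and from 11.58 through 11.70 to 11.81 in low sows. High sow 3 was lowest in both genes. The UQCRB difference was -0.11 (interval -0.33 to 0.10, limma adjusted p = 0.931), and -0.044 without high sow 3, while the UQCR10 difference was 0.039 (interval -0.17 to 0.25, limma adjusted p = 0.988).

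Complex IV, the cytochrome c oxidase, had 4 of 7 tested genes lower in high sows and a median difference of -0.00097. Its nuclear subunits surround a mitochondrially encoded core, and some come in tissue forms. COX6A1, the form of most tissues, ran from 12.66 through 13.06 to 13.19 in high and from 12.90 through 13.04 to 13.33 in low sows, a difference of -0.096 (limma adjusted p = 0.961). COX7A2, likewise the form of most tissues, ran from 11.44 through 11.63 to 11.81 in high and from 11.55 through 11.67 to 11.99 in low sows, a difference of -0.091 (limma adjusted p = 0.948). The heart and muscle form of that subunit, COX7A1, ran from 8.77 through 8.88 to 9.06 in high and from 8.84 through 8.89 to 8.97 in low sows, a difference of 0.014 (interval -0.15 to 0.18, limma adjusted p = 0.990). All 3 groups of values overlapped. COX8H, the muscle form of a further subunit, lay between 1.86 and 1.91 in the 12 sows and was not tested. Of the striated muscle markers, 4 of 6 had a probe set: MYH7, MYL1 and TNNT3 were under the filter, at means of 2.50, 2.05 and 2.05 in high sows, and CKM, muscle creatine kinase, passed it in both groups, at 5.02 ± 0.56 in high and 5.40 ± 0.43 in low sows (SD, n = 6 each).

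COX7C, a small subunit without a tissue form, ran from 12.59 through 12.68 to 12.97 in high and from 12.48 through 12.63 to 12.78 in low sows. It was the gene with the largest positive difference of all members, 0.11 (interval -0.10 to 0.32, limma adjusted p = 0.931), with high sow 3 highest and low sow 2 lowest. NDUFA4, named for complex I but known as a subunit of complex IV and counted there, ran from 11.72 through 12.12 to 12.44 in high and from 11.96 through 12.21 to 12.40 in low sows. Its difference was -0.10 (interval -0.39 to 0.18, limma adjusted p = 0.958), and -0.029 without high sow 3. COX6C was the steadiest of the 59 genes, from 13.03 through 13.08 to 13.16 in high and from 13.05 through 13.08 to 13.14 in low sows. COX5B, which lies on the matrix side, differed by 0.029.

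Complex V, the ATP synthase, had 11 of 14 genes lower in high sows, with a median difference of -0.078. With the actin 3' minus 5' difference as covariate the median was -0.0046, and 5 of the 11 genes (ATP5D, ATP5E, ATP5G2, ATP5G3 and ATP5O) turned to higher. The catalytic head was measured by its alpha and beta subunits. ATP5A1, the alpha subunit, ran from 12.42 through 12.48 to 12.57 in high and from 12.48 through 12.55 to 12.79 in low sows. All 6 high sows were under the low mean, which low sow 2 raised, and the difference was -0.087 (interval -0.26 to 0.091, limma adjusted p = 0.935). ATP5B, the beta subunit that holds the catalytic sites, ran from 12.33 through 12.42 to 12.48 in high and from 12.20 through 12.39 to 12.57 in low sows, a difference of 0.0084 (limma adjusted p = 0.995).

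ATP5F1, subunit b of the peripheral stalk, ran from 12.36 through 12.57 to 12.65 in high and from 12.57 through 12.65 to 12.78 in low sows. All 6 high sows lay under the low mean, with high sow 1 lowest, but the groups overlapped. The ATP5F1 difference was -0.11 (interval -0.28 to 0.068, limma adjusted p = 0.927). The stalk subunits did not share a sign. ATP5O, which joins the stalk to the head, differed by -0.13 and ATP5J, another stalk subunit, by 0.11 (limma adjusted p = 0.945 for both). ATP5S, taken in by its symbol although it is not a core subunit, differed by 0.014.

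Subunit c forms the rotating ring in the membrane, and 3 genes encode the same mature protein. ATP5G1 ran from 9.99 through 10.28 to 10.45 in high and from 10.09 through 10.36 to 10.85 in low sows, a difference of -0.17 (interval -0.48 to 0.13, limma adjusted p = 0.929), and -0.084 without low sow 2. ATP5G2 ran from 10.20 through 10.49 to 11.25 in high and from 10.56 through 10.75 to 10.87 in low sows. The high sows of ATP5G2 spread on both sides of the low group: 4 lay below every low sow and high sow 3 lay above them all. Its difference was -0.16 (interval -0.50 to 0.18, limma adjusted p = 0.942), and -0.29 without high sow 3 or -0.083 without high sow 2. With the actin 3' minus 5' difference as covariate the sign turned, to 0.20. ATP5G3 ran from 12.21 through 12.52 to 12.62 in high and from 12.43 through 12.54 to 12.61 in low sows, a difference of -0.070 (limma adjusted p = 0.962).

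The genes of subunit c were also set apart by sow. In high sow 3, ATP5G2 and ATP5G3 held their highest values of the 12 sows, while ATP5G1 was at 10.04, below its mean. In low sow 2 ATP5G1 was highest, at 10.85, while ATP5G3, at 12.44, lay slightly under its mean. These contrasts were chosen after their values were seen and were not tested.

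**Figure D3:**
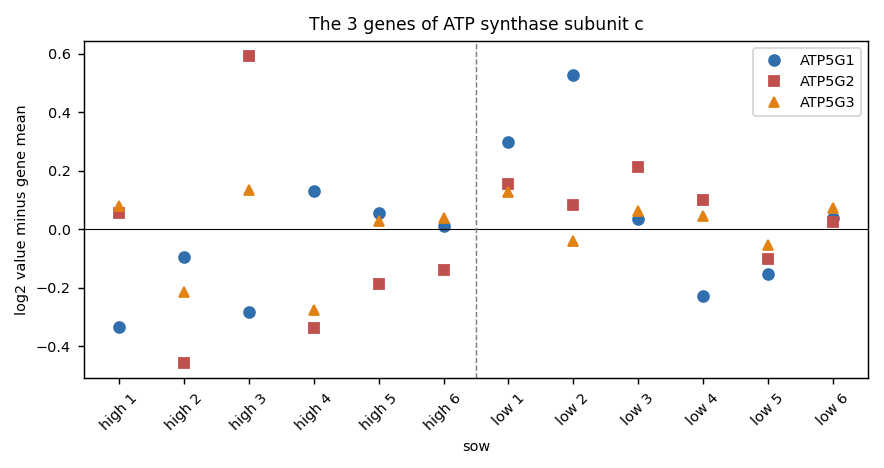
Log2 deviation from the 12-sow mean of each gene (vertical axis) for ATP5G1, ATP5G2 and ATP5G3 in each sow; each point is 1 sow and the dashed line parts the high from the low group. ATP5G2 is highest in high sow 3 and ATP5G1 in low sow 2.

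From sow to sow the subunits moved together by more than the groups stood apart. The mean level of the 59 genes was -0.16, -0.11, -0.094, 0.050, 0.049 and 0.057 in high sows 1 to 6, and 0.10, 0.18, 0.015, -0.10, 0.0028 and 0.0014 in low sows 1 to 6. High sows 1, 2 and 3 and low sow 4 were low, and low sows 1 and 2 were high, so the groups overlapped. The group means were -0.033 ± 0.095 and 0.033 ± 0.097 (SD, n = 6 each), and their difference of -0.066 was smaller than either SD. In high sow 1, 8 of 59 members (13.6%) were above their own 12-sow mean, against 44.8% of all probe sets tested on that array. Low sow 4 also had 8 (13.6%, against 45.1%), and low sow 2 had 50 (84.7%, against 53.0%). The share on each array was not computed for bright probe sets alone, so a shift of bright probe sets was not told apart from one of the subunits.

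The complexes followed this order to different degrees. Complex I ran from -0.18 in high sow 1 to 0.23 in low sow 2, and complex II from -0.22 in high sows 1 and 3 to 0.24 in low sow 2. Complex III was lowest in high sow 3, at -0.33, and slightly up in high sow 2, at 0.085. Complex V kept closer to its mean, from -0.12 in high sow 2 to 0.10 in low sows 1 and 2, and was at 0.025 in high sow 3.

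Single members departed from their sow. High sow 1 was lowest of all 12 in 18 genes, high sow 3 in 15 and high sow 2 in 11, and low sow 2 was highest in 26. High sow 3 was nevertheless highest in 5, namely NDUFS6, COX7C, ATP5G2, ATP5G3 and ATP5O, while it was lowest in NDUFA5, NDUFB11, SDHC, UQCR10, UQCRB, COX6A1 and NDUFA4 among others. NDUFB3, NDUFS6, COX6C, ATP5G2 and ATP5G3 were above their means in both high sow 1 and low sow 4. Low sow 2 was lowest in NDUFV3 and COX7C.

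**Figure D4:**
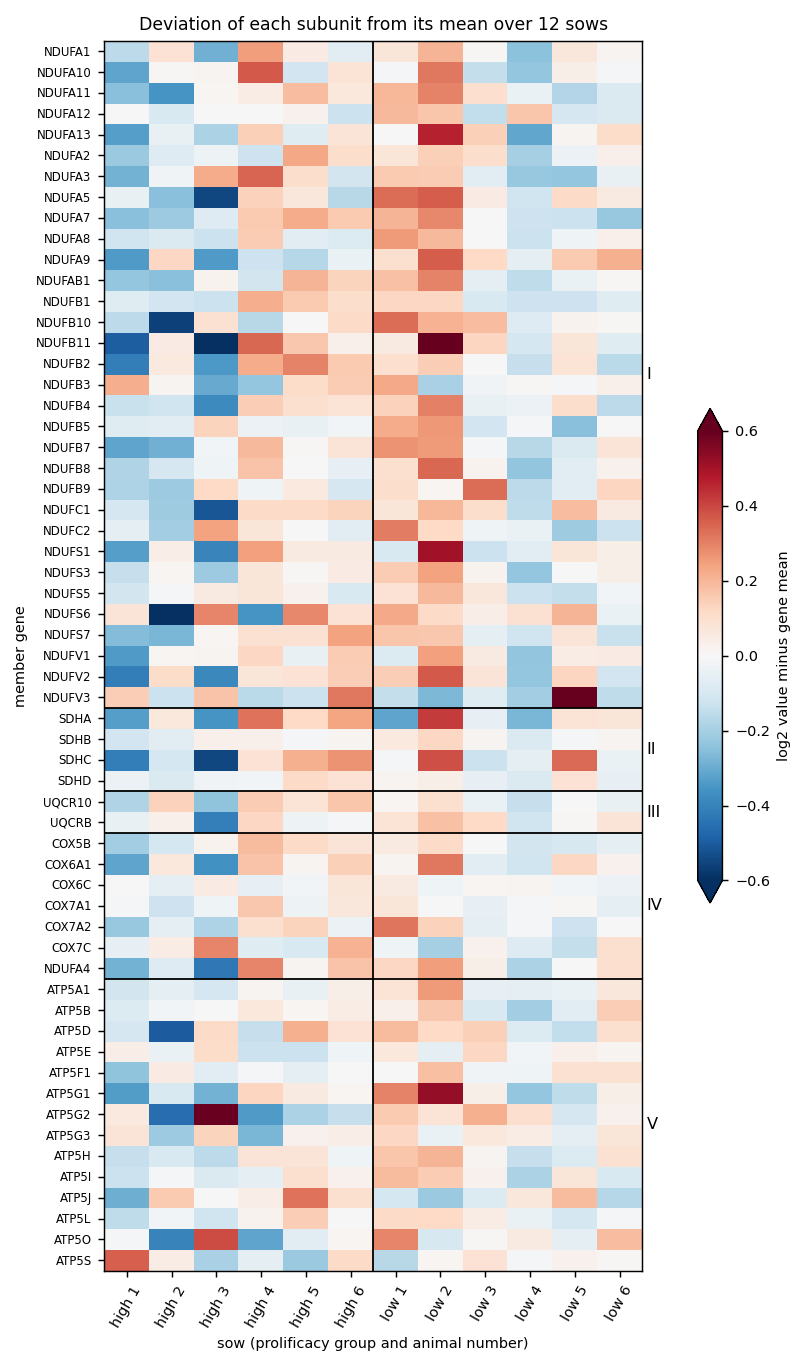
Log2 value minus gene mean (colour) of the 59 subunit genes tested (rows, by complex) in each sow (columns, high then low). High sow 1 and low sow 4 are below the mean in most rows and low sow 2 is above it in most, while ATP5G2 in high sow 3 goes against its column.

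Cell type markers and RNA quality also varied between these sows. The granulosa list was at 1.74 in high sow 1, 1.69 in high sow 3 and 0.65 in low sow 4, but at -1.72 in high sow 2 and -0.083 in low sow 2. In low sow 1, where the subunits were high, it was at 0.79. It was highest in low sow 6, at 1.79, where the subunit level was 0.0014. The luteal list was at -0.18, 0.23 and -0.45 in high sows 1 to 3, 0.065 in low sow 1, 0.16 in low sow 2 and -0.14 in low sow 4. Stroma markers (3 of 6 tested) were at 0.27, -0.043 and 0.90 in high sows 1 to 3, and at 0.14, -0.69 and 0.59 in low sows 1, 2 and 4. The actin 3' minus 5' difference was 2.59 ± 0.45 in high and 2.12 ± 0.13 in low sows (SD, n = 6 each), highest in high sow 2 at 3.23. For GAPDH the 3' minus 5' difference was also larger in high sows, 2.02 ± 0.20 against 1.77 ± 0.11 (SD, n = 6 each). The part of these values in the level of the subunits was not tested beyond the covariate fit. Without the 4 sows with albumin above 6, an alternative chosen after the data were seen, 48 of 59 members were lower and the median difference was -0.11.

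Other mitochondrial genes were read from lists. Of the assembly factors, which build the complexes, 11 of 14 tested were lower in high sows (median difference -0.12), and of the electron and ADP/ATP carriers 12 of 14 (median -0.12). The citric acid cycle had 13 of 17 lower (median -0.080), the mitochondrial ribosome 40 of 56 (median -0.063) and protein import 14 of 18 (median -0.11). Among the regulators of mitochondrial biogenesis 2 of 5 were lower and the median was 0.091. None of these genes passed the adjusted threshold by limma, and at an unadjusted p under 0.05 there were 2 assembly factors, 3 carriers, 1 regulator, 1 import gene and no gene of the other 2 lists, all lower in high sows, against 3.38% of all probe sets tested. No probe set carried the symbol of a mitochondrially encoded subunit (0 of 26 symbols listed).

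By sow the lists ran with the subunits at the extremes. In low sow 2 the assembly factors were at 0.43, the carriers at 0.25, the citric acid cycle at 0.20, the ribosome at 0.18 and import at 0.24. In high sow 1 they were at -0.32, -0.16, -0.26, -0.13 and -0.20. In high sow 3 they parted, with the citric acid cycle at -0.20 and the ribosome at 0.056, and in high sow 2 import was at -0.30 and the citric acid cycle at -0.0086.

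**Figure D5:**
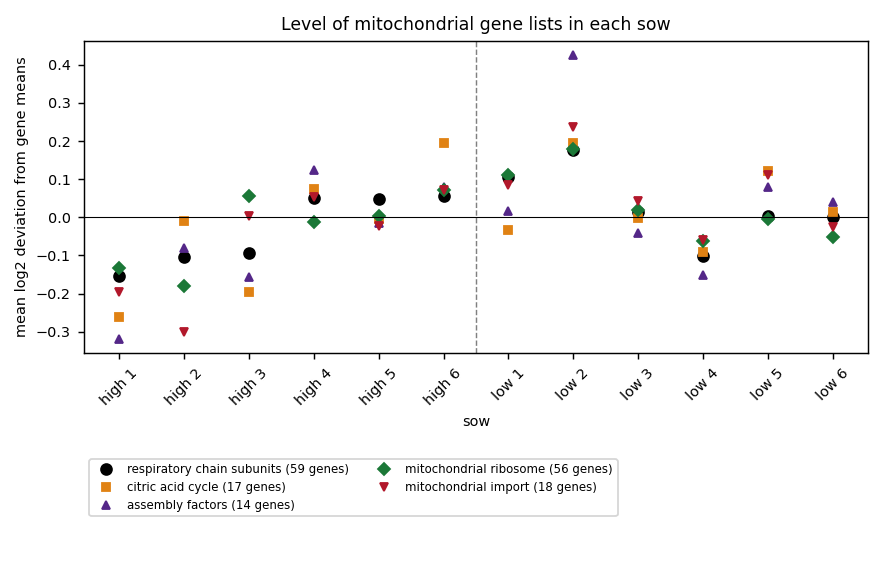
Mean log2 deviation from the gene means (vertical axis) of the subunits, the citric acid cycle, the assembly factors, the mitochondrial ribosome and protein import in each sow; each point is 1 list in 1 sow and the dashed line parts the high from the low group. The subunits lie between -0.16 in high sow 1 and 0.18 in low sow 2, and the other lists spread around them.

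Of these lists, TFAM, which packages and transcribes mitochondrial DNA, was the gene whose groups did not overlap, and it was singled out after its values were seen. It ran from 8.89 through 9.13 to 9.48 in high sows and from 9.52 through 9.56 to 9.71 in low sows. Every high sow lay under every low sow, as in 45 of all 13390 probe sets tested (0.336%). Groups free of overlap in either direction were found in 63 (0.471%). The TFAM difference was -0.40 (interval -0.64 to -0.16, 1.32-fold, limma adjusted p = 0.752, adjusted p = 0.46 by exact permutation). The permutation value is the lowest that test could give here. All 63 probe sets free of overlap share it, so it does not set TFAM apart from them. A dimmer TFAM probe set differed by -0.23 and a further one by -0.39 (limma adjusted p = 0.896 and 0.919), and the dimmest was not tested.

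SLC25A5, an ADP/ATP carrier of the inner membrane, had means of 10.43 ± 0.21 and 10.72 ± 0.14 (SD, n = 6 each), a difference of -0.29 (limma adjusted p = 0.834). NDUFAF1, which assembles complex I, had means of 6.44 ± 0.20 and 6.83 ± 0.40, a difference of -0.39 (limma adjusted p = 0.862), and -0.25 without low sow 2. TOMM70, an import receptor of the outer membrane, differed by -0.56 (limma adjusted p = 0.801), and by -0.37 without high sow 2. CYCS, which is cytochrome c, differed by -0.085 and the citrate synthase gene CS by 0.085.

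The other probe sets of member genes did not always follow the brightest. Of 15 such probe sets, 10 were tested, and 5 of these had the sign of the brightest one. The dimmest of the NDUFS3 probe sets, with a mean of 5.78, differed by 0.75 (limma adjusted p = 0.779), against -0.073 for the brightest and -0.21 for the third. Of the 10 tested, this dimmest one alone had an unadjusted p under 0.05 (0.012 by limma), against 5.64% of all probe sets. That p was below the 0.015 of NDUFA9. The dimmer probe set of SDHA differed by -0.23, against 0.021 for the brighter. NDUFB3 and SDHB each had a second probe set of the same sign, at -0.15 and -0.051.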

How the data were processed

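The deposited values were taken to be on a log2 scale, 1 per probe set and sow. According to the submitters' processing notes, GCOS scanner software and then GCRMA were used by the authors, which subtracts a sequence-based background and normalizes between arrays; no version is given. Whether tissue, RNA or values of the ovaries were averaged is not stated. Names came from the platform annotation (10099 probe sets with 1 symbol, 198 with several, 13826 with none). Among the 124 Affymetrix controls, 62 names were inferred to stand 21 rows away from their values. At that offset the mean gap to 21 spike controls of the same name was smallest, at 0.44. It was 4.83 as named and 1.66 at the next best offset. The actin and GAPDH 3' and 5' probe sets were therefore read at the moved place, and the actin covariate rests on this inference. Probe sets of 1 gene correlated as named (median r 0.64 over 926 pairs). With only 1 of each pair moved the median r was 0.0073. That move pairs different genes, so a value near 0 was bound to arise and no conclusion is drawn from it.

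Controls were left out, and limma 3.58.1 in R 4.3.3 compared the groups two-sided on probe sets above 4 in at least 6 of 12 sows, with Benjamini-Hochberg adjustment over all 13390 and a threshold of 0.05. The procedure was tested on simulated data. These had independent noise for each probe set and shifts larger than any member difference, so they do not bear on differences of the size seen here. Values per sow are given for core members, for the 3 smallest p-values and the widest spread in each complex, and for genes of tissue or paralogue forms, with a few others named after their values were seen. The members and lists were chosen with earlier results of these data known. The RefSeq gene list (Sscrofa11.1) held 70 symbols of the rule, and 10 had no member and are not analysed here. Alternatives changed the filter, normalization, weights, covariate, replicate block, probe set rule and test, and left out each sow.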

Additional observations from a re-analysis of the deposited data

Results flagged for a closer look

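Dixon's test of the extreme sow was run on 130 groups of 6 sows, and about 1 in 20 would pass it by chance. It marked 7 values, 3 in high and 4 in low sows. NDUFA8, a membrane-arm subunit of complex I, was at 10.05 in high sow 4, with the other high sows between 9.77 and 9.83. NDUFB5 was at 10.89 in high sow 3, with the others between 10.68 and 10.74. UQCRB of complex III was at 10.99 in high sow 3, below the others at 11.35 to 11.53. NDUFB11 and NDUFS1 were both high in low sow 2, at 11.55 and 10.17, against 10.78 to 11.02 and 9.54 to 9.74 in the other low sows. NDUFV3 was at 5.25 in low sow 5, against 4.35 to 4.55. ATP5S was at 7.33 in low sow 1, below the others at 7.49 to 7.58.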

How the results depend on the processing

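No member passed the adjusted threshold under any of the alternatives, where the smallest adjusted p was 0.189 for NDUFA9 with the actin covariate. The exact permutation test could not have passed any member. Over all probe sets 1 passed without low sow 1, and it was no member. The labels name no pairs of sows. Same-numbered sows deviated from their group means with r from -0.46 to 0.17, and 1 of 6 correlated best with its own number. These values cannot show that no pairing existed. With the replicate number as a block 0 probe sets passed, with a smallest adjusted p of 0.251. Members lower in high sows numbered 39 to 49 when 1 sow was left out and 36 with array weights. Their median difference was -0.096 to -0.032 when 1 sow was left out, -0.024 with array weights and -0.035 with the actin covariate. The median of complex III was -0.18 with the actin covariate, and that of complex II was -0.13 without the sows with albumin above 6; complexes II and III are small lists. Over all alternatives the median ran from -0.12 to -0.028 for complex I, -0.13 to 0.035 for complex II, -0.18 to 0.024 for complex III, -0.018 to 0.017 for complex IV and -0.10 to -0.0046 for complex V, the last with the actin covariate. Of the 59 members 27 kept their sign in all settings, 22 of them lower in high sows. The causes were not tested.

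The differences that turned sign included some of the larger ones, NDUFS6, ATP5G2, SDHC and ATP5O among the members. With the actin covariate they were ATP5B -0.0042, ATP5D 0.10, ATP5E 0.010, ATP5G2 0.20, ATP5G3 0.089, ATP5O 0.14, ATP5S -0.0050, COX6C 0.041, NDUFA10 -0.089, NDUFA11 0.0014, NDUFA7 0.012, NDUFAB1 0.0036, NDUFB5 0.040, NDUFC2 0.12, NDUFS6 0.21, NDUFS7 0.0056, SDHA -0.18 and UQCR10 -0.10. With array weights they were COX6A1 0.0026, COX6C 0.011, NDUFA2 0.0098, NDUFA7 0.080, NDUFAB1 0.0066, NDUFB2 0.078, NDUFB3 0.025, NDUFS7 0.062, NDUFV1 0.035 and SDHC 0.016. As the mean over all probe sets of a gene they were ATP5L 0.0097, NDUFS3 0.16, SDHA -0.10 and, of the carriers, VDAC2 0.072. With median centring they were COX6C 0.017, NDUFA7 0.015, NDUFB2 0.0091, NDUFB3 0.0045 and NDUFC2 0.012. With quantile normalization they were ATP5B -0.0052, NDUFA7 0.0041, NDUFB5 0.00050, NDUFC2 0.016 and NDUFS5 0.0099. Without high sows 2 and 3 they were COX6C 0.0012, NDUFA7 0.070, NDUFB2 0.061, NDUFB3 0.055 and NDUFS7 0.025. Without the sows with albumin above 6 they were ATP5B -0.079, COX6C 0.030, NDUFA10 -0.083, NDUFB3 0.028, NDUFC2 0.071, SDHA -0.20, SDHD -0.039 and UQCR10 -0.0097.

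Leaving out 1 sow at a time gave -0.033 to 0.041 for ATP5B, -0.056 to 0.059 for ATP5S, -0.0065 to 0.074 for COX5B, -0.015 to 0.010 for COX6C, -0.018 to 0.040 for COX7A1, -0.095 to 0.012 for NDUFA1, -0.058 to 0.078 for NDUFA10, -0.091 to 7.2e-05 for NDUFA2, -0.049 to 0.055 for NDUFA7, -0.069 to 0.074 for NDUFB2 and -0.058 to 0.046 for NDUFB3. It gave -0.089 to 0.014 for NDUFB5, -0.11 to 0.0025 for NDUFB8, -0.055 to 0.055 for NDUFC2, -0.051 to 0.016 for NDUFS5, -0.083 to 0.019 for NDUFS7, -0.076 to 0.040 for NDUFV1, -0.042 to 0.11 for SDHA and -0.0064 to 0.034 for SDHD.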
